A study of Mus musculus with 5 samples.

Results

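Crystallin transcripts were counted in 5 injured mouse retinas. The 9 genes described here are Cryaa, Cryab, Cryba1, Cryba2, Cryba4, Crybb1, Crybb2, Crybb3 and Crygs, all of which had a row among the 25655 gene symbols of the count table. The genes were chosen by symbol with their counts in these same retinas known, namely their levels in each retina and the difference between the treatments, so their levels and their Sorbinil against DMSO difference are given as a description. No p-value is printed for any of the 9, and counts of crystallins past a threshold describe these retinas and are not independent evidence. All retinas came from wildtype C57BL/6 mice, 8 to 10 weeks old at surgery, whose optic nerve was crushed (ONC) and whose injured retina was taken 7 days later. The DMSO group (3 retinas, replicates 1, 2 and 3) received the vehicle, and the Sorbinil group (2 retinas, replicates 1 and 3) received the aldose reductase inhibitor Sorbinil at 10 mg/kg, both given daily by intraperitoneal injection from the day before the crush. Mice of both sexes were used in the study, and the sex of each retina is not given in the sources used here. No uninjured retina was measured, so nothing below compares injured with healthy tissue. The injured retina of 1 mouse gave each library, so the groups are 3 mice with DMSO and 2 mice with Sorbinil.

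Crystallins are the soluble proteins that make the lens transparent. The α-crystallins (Cryaa and Cryab) are small heat shock proteins that hold unfolding proteins in solution, and the β- and γ-crystallins are a separate family of compact structural proteins. Cryab is also made outside the lens, in muscle, heart and glia, and the retina expresses it. Most β- and γ-crystallins and Cryaa are far more abundant in lens fibre cells than in any other cell, although low levels have been described in retina. The lens lies against the vitreous next to the retina, and aldose reductase, the target of Sorbinil, is itself well known from the lens. Because retina itself expresses Cryab, it was kept apart from the other 8 genes, which are called lens crystallins here.

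The 8 lens crystallins lie on 5 chromosomes. In the GENCODE annotation of GRCm39, Cryaa lies on chromosome 17 (31896781 to 31900707, plus strand), Cryba1 on chromosome 11 (77609441 to 77616120, minus strand), Cryba2 on chromosome 1 (74929093 to 74932302, minus strand) and Crygs on chromosome 16 (22623953 to 22630327, minus strand). The other 4 are on chromosome 5. There Cryba4 (112394359 to 112402226, minus strand) and Crybb1 (112400811 to 112417965, plus strand) point away from each other and overlap at their ends, and Crybb2 (113206124 to 113217983, minus strand) lies beside Crybb3 (113223705 to 113229450, minus strand). Cryab lies on chromosome 9 (50651859 to 50668567, plus strand). Its start site is 329 bases from that of Hspb2, another small heat shock protein gene, which is read in the opposite direction. Hspb2 (50662378 to 50663858) lies within the annotated span of Cryab. That span also overlaps 2310030G06Rik, and that of Cryba1 overlaps Nufip2, each on the opposite strand. The libraries were stranded, but whether the counting used strand is not stated, so reads in these overlaps are uncertain.

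The promoters of the lens crystallins and of Cryab were searched for short motifs. The 250 bases before the start site of the canonical transcript were read from GRCm39 for all 9 genes and searched on both strands for TATAAA (the TATA box), for TGCTGA (a short piece of the binding motif of Maf factors, which drive crystallin genes in the lens) and for GAANNTTC (the core of a heat shock element). No match overlapped another in the promoters shown. The Maf piece was found in 6 of the 8 lens crystallins, namely Cryba1, Cryba2, Cryba4, Crybb1, Crybb3 and Crygs, and in 14.8% of the 21770 promoters of protein-coding genes. Of 6 other γ-crystallins outside the 9, it was found in 2, and the TATA box letters in 0. Cryaa, Crybb2 and Cryab did not hold these letters in this window. The TATA box letters were found in Cryba1 and Crybb1, and in 11.9% of all promoters. The heat shock core was found in Cryab, between 39 and 32 bases before its start, in 0 of the 8 lens crystallins, and in 6.33% of all promoters. At that share, its absence from 8 promoters marks no contrast. A match is a description of the letters and not a measured binding site. The promoters of Cryba1 (chr11:77616121-77616370, minus strand) and Crybb1 (chr5:112403430-112403679, plus strand) are shown because they hold both of the first motifs, that of Crygs (chr16:22630328-22630577, minus strand) because its Maf piece lies closest to the start, and that of Cryab (chr9:50663937-50664186, plus strand) for its heat shock core. Motifs are in capitals, and in Crygs the capitals read on the opposite strand.
Cryba1: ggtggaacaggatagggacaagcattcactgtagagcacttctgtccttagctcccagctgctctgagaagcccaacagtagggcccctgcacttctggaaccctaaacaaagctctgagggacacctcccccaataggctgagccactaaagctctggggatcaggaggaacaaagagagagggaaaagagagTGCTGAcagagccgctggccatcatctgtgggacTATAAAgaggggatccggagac
Crybb1: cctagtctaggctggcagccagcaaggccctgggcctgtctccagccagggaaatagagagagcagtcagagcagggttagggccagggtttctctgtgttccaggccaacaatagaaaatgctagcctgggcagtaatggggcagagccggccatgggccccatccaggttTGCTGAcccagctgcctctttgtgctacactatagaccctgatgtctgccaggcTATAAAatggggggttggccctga
Crygs: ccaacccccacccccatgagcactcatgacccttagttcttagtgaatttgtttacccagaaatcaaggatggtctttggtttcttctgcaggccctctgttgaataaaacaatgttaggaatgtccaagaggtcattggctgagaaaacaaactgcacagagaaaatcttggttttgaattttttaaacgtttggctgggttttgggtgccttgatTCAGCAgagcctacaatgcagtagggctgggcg
Cryab: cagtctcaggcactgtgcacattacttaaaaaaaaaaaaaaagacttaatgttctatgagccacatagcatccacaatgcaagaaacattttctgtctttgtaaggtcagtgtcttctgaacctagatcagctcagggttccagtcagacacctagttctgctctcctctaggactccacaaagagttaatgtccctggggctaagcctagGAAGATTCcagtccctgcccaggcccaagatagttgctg

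Before the levels are read, 3 of the libraries need a remark. Each retina gave between 56096541 and 90288552 counts. Levels are given as CPM, the counts of a gene for each 1000000 counts of its library after TMM scaling, and 3 counts, below which a gene is treated as at the floor, corresponded to 0.031 to 0.0571 CPM. On the first principal component of all 14992 genes tested (65.4% of the variance), Sorbinil replicate 1 had a score of 75.8, far from the scores of -28.9 to -7.6 of the other retinas. On the second component (18.4%), both retinas numbered 3 had negative scores, -25.3 with DMSO and -22.4 with Sorbinil, and DMSO replicates 1 and 2 lay at the opposite end with 22.3 and 20.5. The retinas matched their label, since rod genes were abundant in all 5, with Gnat1, the α-subunit of rod transducin, at 12300 to 21300 CPM. The crystallins differed along these same libraries, and the treatment difference of Cryab, the median of the lens crystallins and the number called are therefore also given without each of them.

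The lens crystallins were high in the 2 retinas that carry replicate number 3, whichever treatment these had received. Summed over the 8 genes, their level was 1.64 and 1.83 CPM in DMSO replicates 1 and 2 and 3.27 CPM in Sorbinil replicate 1, but 60.8 CPM in DMSO replicate 3 and 37.7 CPM in Sorbinil replicate 3. In counts these sums were 159, 146, 172, 3381 and 2561 in the same order. DMSO replicate 3 was thus 37.0-fold and 33.3-fold above the other DMSO retinas, and Sorbinil replicate 3 was 11.5-fold above Sorbinil replicate 1. The spread within each treatment was larger than any difference between the treatments.

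Cryaa, the α-crystallin of the lens, had the most counts of the 8 in both retinas numbered 3 and in Sorbinil replicate 1. It had 16, 16 and 1517 counts in DMSO replicates 1, 2 and 3 and 48 and 1140 counts in Sorbinil replicates 1 and 3. These are 0.165, 0.200 and 27.3 CPM with DMSO and 0.913 and 16.8 CPM with Sorbinil. Both retinas numbered 3 stood far above the rest, the treatment groups overlapped, and Sorbinil replicate 1 lay between DMSO replicates 1 and 2 and the high pair. The group means were 9.22 ± 15.7 CPM (SD, n = 3) and 8.85 ± 11.2 CPM (SD, n = 2), with each SD larger than its mean.

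Of the acidic β-crystallins, Cryba1 was counted 2, 3 and 498 times in the DMSO retinas, against 12 and 335 times after Sorbinil. Cryba2 gave 12, 10 and 161 counts under DMSO, against 16 and 119 under Sorbinil. For Cryba4 the DMSO retinas held 11, 14 and 165 counts, and the Sorbinil retinas 18 and 109. In each of these 3 genes the retinas numbered 3 were the highest, and Cryba1 was near or under the floor in the other DMSO retinas. The lower of the retinas numbered 3 exceeded the highest of the other retinas 21.6-fold for Cryba1, 5.76-fold for Cryba2 and 4.69-fold for Cryba4, on the CPM scale.

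The basic β-crystallins fell into a steep and a shallow pattern. Crybb2, a major β-crystallin of the adult lens, gave 5, 4 and 444 counts under DMSO, against 16 and 405 under Sorbinil. Crybb1 had 53, 61 and 162 counts under DMSO, against 28 and 123 under Sorbinil. Crybb3 had 52, 35 and 120 counts under DMSO, against 24 and 129 under Sorbinil. Crybb2 thus differed 19.6-fold between the lower of the high retinas and the highest of the rest, compared to 2.37-fold for Crybb1 and 3.53-fold for Crybb3. Crybb1 and Crybb3 were not near the floor in any retina, with 0.438 to 0.763 CPM in the 3 retinas where the others were scarce. Crygs, a γ-crystallin of the adult lens cortex, followed the steep pattern with 8, 3 and 314 counts under DMSO and 10 and 201 under Sorbinil, a 15.6-fold difference.

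Over all 9 crystallins, 8 were higher in both retinas numbered 3 than in each of the other 3 retinas, an order found in 4.7% of the 14992 genes tested, and Cryab was not. The distance was at least 2-fold for 8 crystallins (0.3% of genes tested) and at least 4-fold for 6 crystallins (0.1% of genes tested, or 15 genes). Since the crystallins were listed with these levels known, nothing is read from their own share. The other 9 of the 15 genes were the γ-crystallins Crygb, Crygc, Crygd, Cryge and Crygf, the lens fibre genes Mip and Lctl, and Col6a3 and Muc4, the latter pair named after their values were seen. These γ-crystallins, Mip and Lctl passed the filter on low counts only through the retinas numbered 3. Muc4, a membrane mucin of surface epithelia, had 13, 28 and 115 counts under DMSO, against 9 and 101 under Sorbinil. Col6a3, a collagen of connective tissue, had 14, 9 and 34 counts under DMSO, against 2 and 53 under Sorbinil.

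**Figure D1:**
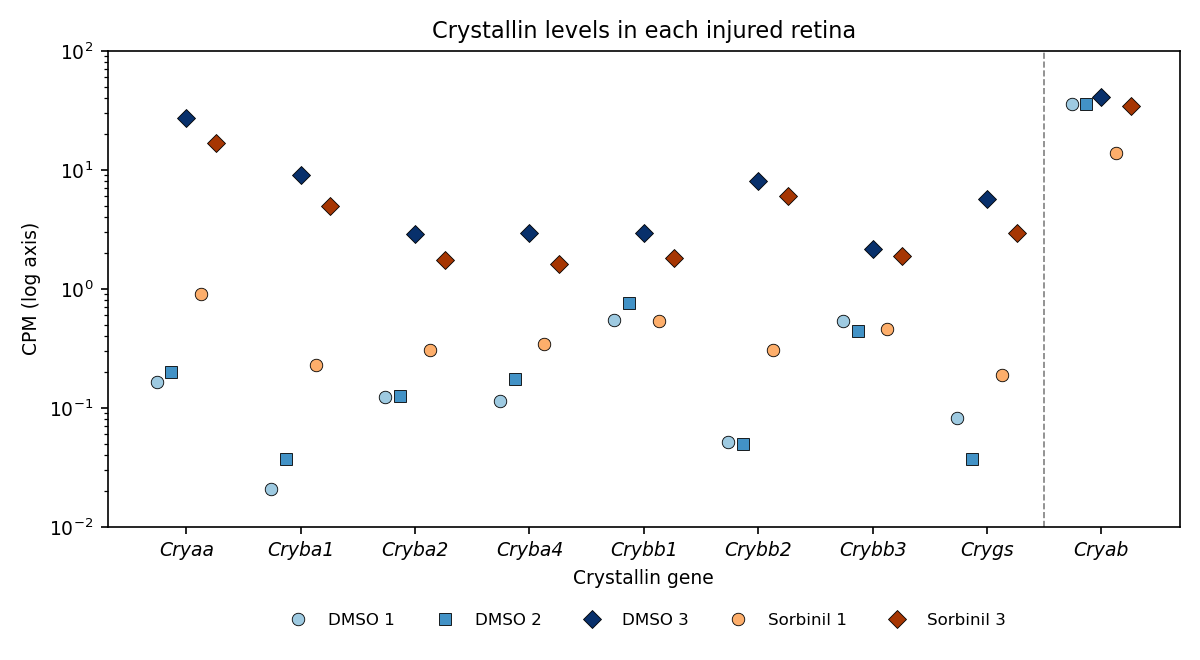
CPM (log axis) of each crystallin gene in the 5 injured retinas, 1 point per retina, with Cryab to the right of the dashed line. For the 8 lens crystallins the diamonds (DMSO 3 and Sorbinil 3) are the highest points, from 1.61 to 27.3 CPM, while for Cryab the low point is Sorbinil 1 at 13.8 CPM.

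The make-up of the lens crystallin transcripts was closer within the high pair than between that pair and the other retinas, although it was not the same in both. Of the summed counts of the 8 genes, Cryaa took 44.9% in DMSO replicate 3 (95% Wilson interval 43.2% to 46.5%) and 44.5% in Sorbinil replicate 3 (42.6% to 46.4%). It took 10.1% (6.29% to 15.7%) and 11.0% (6.86% to 17.1%) in DMSO replicates 1 and 2, and 27.9% (21.7% to 35.0%) in Sorbinil replicate 1. These intervals cover counting error only, as the reads carry no molecular identifiers. Crybb1 and Crybb3 behaved the other way, with 33.3% and 32.7% in DMSO replicate 1 and 41.8% and 24.0% in DMSO replicate 2, but 4.79% and 3.55% in DMSO replicate 3. In Sorbinil replicate 3 they took 4.80% and 5.04%. The intervals of Crybb3 in the high pair (2.98% to 4.23% and 4.26% to 5.95%) did not overlap, nor did those of Crybb2, at 13.1% (12.0% to 14.3%) in DMSO replicate 3 and 15.8% (14.5% to 17.3%) in Sorbinil replicate 3. For Crybb1 and Crybb3 the shares in Sorbinil replicate 1 were 16.3% and 14.0%. Cryba1, at 14.7% and 13.1% in the high pair, took 1.26% and 2.05% in DMSO replicates 1 and 2. Sorbinil replicate 1 lay between these kinds of make-up for Cryaa, Cryba1, Crybb1, Crybb2 and Crybb3.

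**Figure D2:**
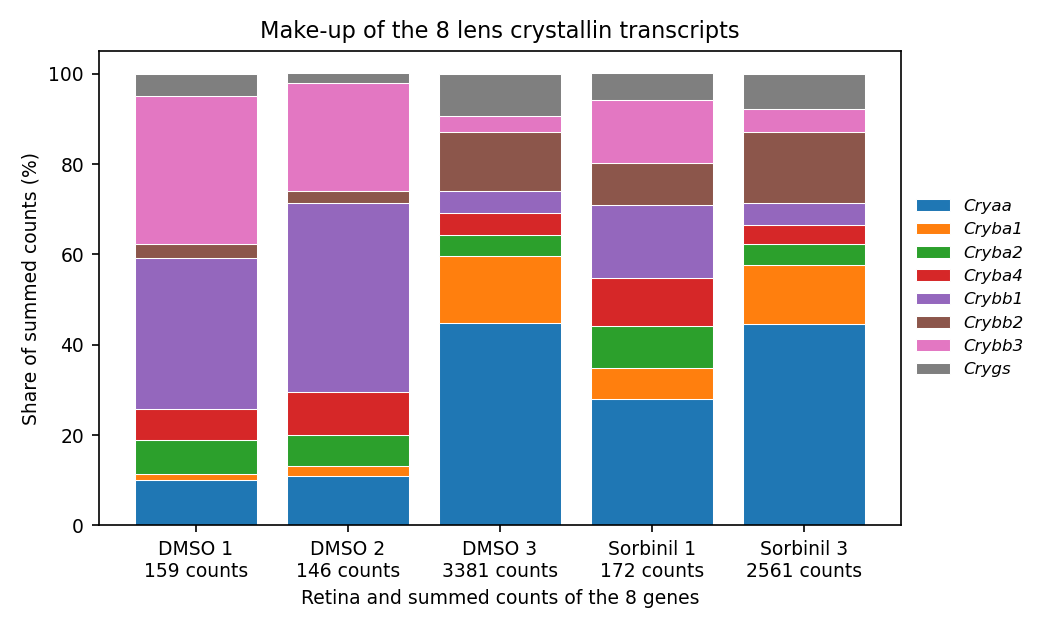
Share (%) of each of the 8 lens crystallins in their summed counts, 1 stacked bar per retina, with the summed counts under each bar. Cryaa takes 44.9% and 44.5% in DMSO 3 and Sorbinil 3, compared to 10.1% and 11.0% in DMSO 1 and DMSO 2, where Crybb1 and Crybb3 take most of the counts.

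Within the high pair, most lens crystallins were lower in the Sorbinil retina than in the DMSO retina. The ratio of the CPM of Sorbinil replicate 3 to that of DMSO replicate 3 was 0.615 for Cryaa (exact counting interval 0.569 to 0.665), 0.551 for Cryba1 (0.478 to 0.634) and 0.524 for Crygs (0.437 to 0.627). It was 0.605, 0.541 and 0.622 for Cryba2, Cryba4 and Crybb1. Crybb2 was at 0.747 (0.651 to 0.856) and Crybb3 at 0.880 (0.681 to 1.14), so that only the interval of Crybb3 among the 8 reached 1. This sets 1 retina beside 1 retina and compares those libraries, not the treatments. Sorbinil replicate 1 ran the other way, with a summed level 1.99-fold and 1.79-fold above DMSO replicates 1 and 2.

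Other lens genes, which are not among the 9, followed the same retinas. The γ-crystallins Cryga to Crygf are confined largely to lens fibre cells. Their summed counts were 14, 5 and 940 with DMSO and 32 and 750 with Sorbinil. Crygb had 5, 2 and 324 counts with DMSO and 5 and 261 with Sorbinil. Crygc had 2, 1 and 289 and then 16 and 217 counts. Both were thus abundant in the retinas numbered 3 alone. Crygd had 3, 0 and 199 counts with DMSO and 11 and 164 with Sorbinil. Cryge had 1, 0 and 84 and then 0 and 58 counts. Crygf was at 0 in DMSO replicates 1 and 2 and in Sorbinil replicate 1, with 37 counts in DMSO replicate 3 and 31 in Sorbinil replicate 3. Cryga, with 3, 2 and 7 counts and then 0 and 19, had too few counts to be tested. For the 5 γ-crystallins tested, the ratio of Sorbinil replicate 3 to DMSO replicate 3 was between 0.565 and 0.686, within the range of the 8 lens crystallins.

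Lens fibre cells also make a water channel, gap junction proteins and a beaded cytoskeleton of their own. Of 12 such genes, 10 were highest in the retinas numbered 3. Among the 8 tested this held for 7, an order found in 4.7% of all genes tested. Mip, Lim2, Lctl and Grifin passed the filter on low counts only through the retinas numbered 3. For these genes the filter itself set the order, so the 7 are a description and not independent support. Mip, the lens water channel (aquaporin 0), had 3, 0 and 57 counts under DMSO, against 3 and 48 under Sorbinil. Lim2, a fibre cell membrane protein, had 2, 2 and 25 counts with DMSO and 4 and 19 with Sorbinil. Lctl had 11 counts in each of the retinas numbered 3 and 0 in the others. These 3 genes were all but absent from the retinas in which the lens crystallins were scarce. The beaded filament genes were higher but less steep, with 36, 50 and 94 counts of Bfsp1 under DMSO, against 40 and 114 under Sorbinil, and 33, 26 and 43 and then 10 and 62 counts of Bfsp2. Lgsn, which encodes lengsin, had 40, 22 and 70 counts under DMSO, against 9 and 74 under Sorbinil, and Grifin, a lens galectin-like protein, had 12, 11 and 22 and then 8 and 17. Gja3, a lens connexin, had 3, 3 and 7 counts with DMSO and 1 and 5 with Sorbinil, and Birc7 and Dnase2b had at most 4 counts in any retina. Lenep did not follow (0, 19 and 0 counts with DMSO, 0 and 12 with Sorbinil), and it shares its strand and position with Flad1. Lctl overlaps Zwilch on the opposite strand.

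None of the 4 lens transcription factors tested, of 7 listed, showed this pattern. Foxe3 and Pitx3, which are needed in lens epithelium, had at most 1 count in any retina. Prox1, Pax6 and Maf, which retinal neurons and glia also express, were at 172 to 386, 56.4 to 148 and 7.44 to 22.3 CPM, each lowest in Sorbinil replicate 1. Hsf4, the heat shock factor of the lens, was at 3.52, 3.04 and 1.87 CPM with DMSO and 1.16 and 2.08 CPM with Sorbinil, and was not raised in the retinas numbered 3. Hsf4 shares part of its position with Tradd on the other strand. Sox1 had 0, 0 and 7 counts under DMSO, against 2 and 3 under Sorbinil.

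Markers of other tissues around the retina were also high in the same pair. Of 5 cornea genes, 3 were tested, and all 3 had a higher CPM in both retinas numbered 3 than in the other retinas. This order was found in 4.7% of all genes tested. The untested cornea genes had too few counts, and 1 of them had at most 2 counts in any retina, under the floor. The summed level of the 5 cornea genes was 0.496, 0.788 and 3.67 CPM with DMSO and 1.24 and 3.39 CPM with Sorbinil. Krt12, the keratin of corneal epithelium, had 16, 16 and 51 counts with DMSO and 25 and 73 with Sorbinil. Of the 11 genes of pigment epithelium and pigment cells, 9 were higher in both retinas numbered 3 than in the others (Best1 and Mlana were not), with a summed level of 117, 108 and 287 CPM with DMSO and 90.4 and 163 CPM with Sorbinil. Ttr, transthyretin, was at 41.0, 38.3 and 103 CPM and then 34.0 and 60.9 CPM, and Rgr, an opsin of the pigment epithelium, was at 37.5, 31.0 and 79.0 CPM and then 25.2 and 42.6 CPM. The part of lens, cornea or pigmented tissue in the crystallin counts was not tested. The replicate number is the only label that sets this pair apart from the other retinas, and the labels do not say that it marks a day, litter or dissection.

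The genes most like the lens crystallins were also lens genes. For each gene, log2 CPM was centred on its mean over the 5 retinas, and the root mean square difference from the median profile of the 8 lens crystallins was taken. Among the 14983 other genes tested, the smallest differences on this log2 scale were those of Mip (0.31), Crygf (0.48), Cryge (0.68), Crygd (0.71) and Crygb (0.76), compared to a median of 2.22 over all genes. Each of these genes passed the filter on low counts only through the retinas numbered 3. Where their counts were at or near 0, their log2 levels were set largely by the prior count. Their rank is thus a description and not independent support. Crygs (0.41) and Cryba2 (0.43) were the closest of the 8 to their own median, and Crybb3 (1.26) and Crybb1 (1.36) the farthest. Cryab, at 2.12, was about as far from this profile as the median gene.

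**Figure D3:**
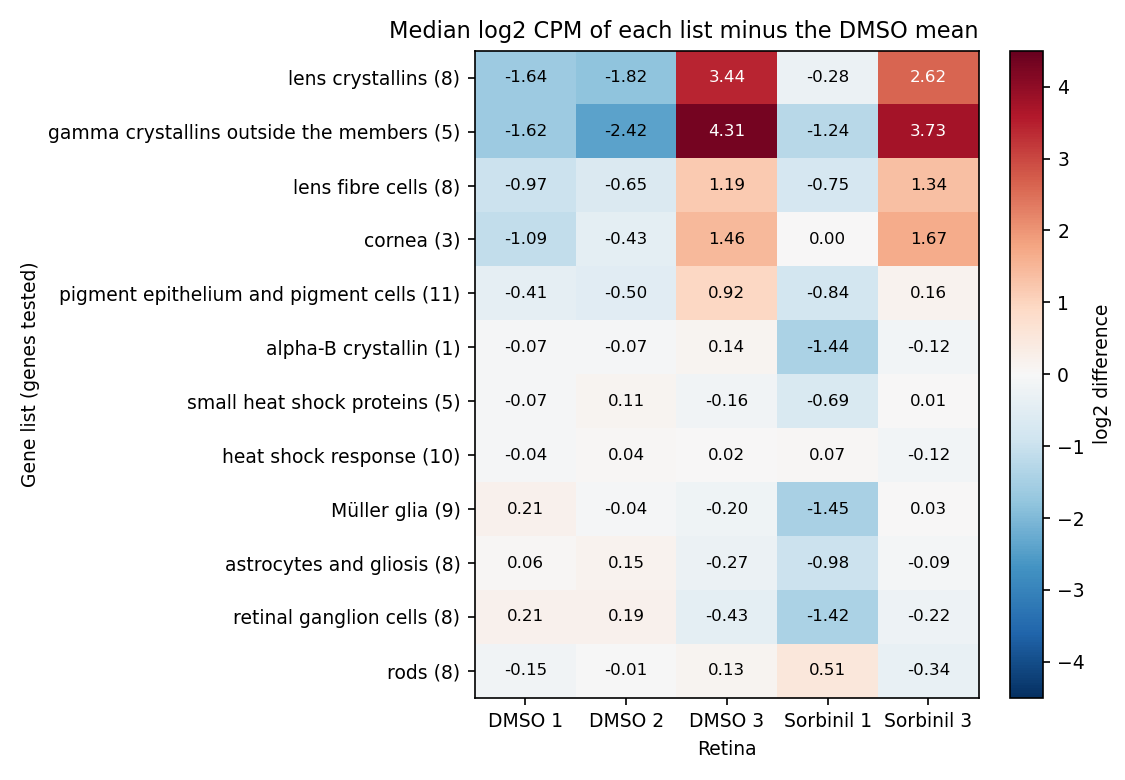
Median log2 CPM of each gene list in each retina minus the mean of the 3 DMSO retinas, on a log2 scale, with the number of genes tested beside each list. The top 5 lists are highest in DMSO 3 and Sorbinil 3, while Cryab and the glial and ganglion cell lists are lowest in Sorbinil 1.

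Cryab differed from the other 8 in level and in pattern. It had 3439, 2847 and 2287 counts in DMSO replicates 1, 2 and 3 and 725 and 2330 counts in Sorbinil replicates 1 and 3. In CPM these are 35.6, 35.6 and 41.2 CPM with DMSO and 13.8 and 34.3 CPM with Sorbinil. DMSO replicate 3, where Cryaa was 165-fold above DMSO replicate 1, had 1.16-fold more Cryab than either of the other DMSO retinas. The low retina was Sorbinil replicate 1, and Sorbinil replicate 3 lay just below the DMSO range, so that the groups did not overlap. Groups that did not overlap were found in 23.2% of the genes tested, with Sorbinil lower in 10.5% and higher in 12.8%, and among the 9 crystallins in Cryab alone.

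Per kilobase of annotated exon, Cryab was the most abundant crystallin in 3 of the retinas, and its order with Cryaa in the high pair depended on the length used. In DMSO replicates 1 and 2 and Sorbinil replicate 1, Cryab was at 8.08, 8.09 and 3.13 CPM per kilobase of all annotated exons, and Cryaa was at 0.0797, 0.0964 and 0.440. In DMSO replicate 3 Cryaa was at 13.2 and Cryab at 9.35, and in Sorbinil replicate 3 they were at 8.09 and 7.80. With the length of the canonical transcript, 1254 bases for Cryaa and 1690 for Cryab, Cryab was the higher in both, at 24.4 against 21.8 and at 20.3 against 13.4 CPM per kilobase. Among the lens crystallins, Crybb3 and Crybb1 had the highest levels per length in DMSO replicates 1 and 2, at 0.231 and 0.127 and at 0.188 and 0.176 CPM per kilobase of all exons. In the high pair Cryaa had the highest level of the 8 under either length.

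Cryab varied with genes of Müller glia, the main support cells of the retina, which are known to express it. Of 9 Müller glia genes, all were lowest in Sorbinil replicate 1, where their median log2 level was -1.45 relative to the DMSO mean, compared to -1.44 for Cryab itself. The same retina had -1.42 for 8 genes of retinal ganglion cells and 0.51 for 8 rod genes. Glul, the glutamine synthetase of Müller glia, was at 3630, 3330 and 3350 CPM with DMSO and 1200 and 3460 CPM with Sorbinil. For each 1000 counts of Glul there were 9.80, 10.7 and 12.3 counts of Cryab in the DMSO retinas and 11.5 and 9.93 in the Sorbinil retinas, a ratio that does not depend on the scaling. The treatments overlapped in this ratio. In bulk retina, fewer cells of a type and less RNA per cell cannot be told apart, and the part of glial content in the level of Cryab was not tested. Among the genes nearest to the profile of Cryab were Tmem158 and Id2 (both 0.04 on the log2 scale) and Lmod1 and Anxa1 (both 0.05), compared to a median of 0.60 over 14983 genes. Many genes were low in Sorbinil replicate 1, so that a close match over 5 retinas is a weak description.

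The small heat shock family, to which both α-crystallins belong, did not follow the lens crystallins as a group. Of its 5 genes tested, 1, Hspb2, was higher in both retinas numbered 3 than in the others, an order found in 4.7% of all genes tested. Hspb2 passed the filter on low counts only with the retinas numbered 3. Hspb1 (HSP27) was at 5.0, 6.15 and 4.68 CPM with DMSO and 1.69 and 4.54 CPM with Sorbinil, lowest in the same retina as Cryab. Hspb6, which is abundant in muscle, was at 81.8, 97.0 and 90.8 CPM with DMSO and 92.2 and 62.6 CPM with Sorbinil, lowest in the other Sorbinil retina. Hspb8 was at 6.16, 7.73 and 4.73 CPM and then 3.77 and 6.11 CPM. Hspb2, the divergent neighbour of Cryab, had 10, 13 and 13 counts with DMSO and 4 and 16 with Sorbinil. These are 0.103, 0.163 and 0.234 CPM and then 0.0761 and 0.236 CPM, between 2.91 and 6.87 for each 1000 counts of Cryab. Hspb3 had 9 to 34 counts per retina, and Hspb7 and Hspb9 had at most 4. Of the 5 genes of this list that were tested, 0 passed the study's threshold, which 1.71% of all genes tested passed. Of 10 genes of the general heat shock response, Hspa1a, an inducible chaperone, was at 117 to 135 CPM, Hsp90aa1 at 1340 to 1830 CPM and Hspa8, the constitutive heat shock cognate, at 1020 to 1360 CPM. Bag3, a co-chaperone, varied more, with 13, 10.1 and 6.52 CPM under DMSO and 5.92 and 9.41 CPM under Sorbinil. The list had a median log2 difference of -0.067 between the treatments, and 0 of its 10 genes was higher in both retinas numbered 3 than in the others.

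Between the treatments, none of the 9 crystallins was called. The study's threshold asks for an unadjusted p of 0.1 or less together with a change of 2-fold or more. By edgeR's quasi-likelihood test, 257 of the 14992 genes tested (1.71%) passed it, with 1.35% lower and 0.36% higher after Sorbinil, and 0 of the 9 crystallins did. Likewise 0 of the 9 had an unadjusted p-value under 0.05 by edgeR, beside 751 of the 14992 genes tested. The DESeq2 Wald test called 0 of the 9, beside 248 of the 14992. All 9 passed the filter on low counts, but 4 of them (Cryba1, Cryba2, Crybb2 and Crygs) did so only through the retinas where they were high. The median log2 fold change (Sorbinil relative to DMSO) of the 8 lens crystallins was -0.07, beside -0.008 over all genes tested, with values from -0.25 (Crygs) to 0.25 (Crybb2). The standard errors were wide, at 2.17 for Cryaa, 2.24 for Cryba1, 2.10 for Crybb2, 0.89 for Crybb1 and 0.91 for Crybb3. With these errors, a 2-fold change in either direction was not detectable for the lens crystallins. Cryab had a log2 fold change of -0.64 with a standard error of 0.38.

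Each of these values turned on the retinas included. Without DMSO replicate 3 the log2 fold change of Cryab was -0.56, the median of the 8 lens crystallins was 3.86 and 6 of the 9 crystallins were called higher with Sorbinil, where 1.99% of all genes were called. These were Cryaa, Cryba1, Cryba2, Cryba4, Crybb2 and Crygs, with fitted log2 fold changes of 2.77 to 6.43. Of these, Cryba1, Cryba2, Crybb2 and Crygs lay below the filter level with all retinas (0.157 CPM) in DMSO replicates 1 and 2, the only DMSO retinas kept here and in the fit without both retinas numbered 3. They entered these fits largely through Sorbinil retinas, so their number is no support for a difference. Without Sorbinil replicate 3 the median was -2.41, only Cryab was called (lower, -1.44), and 19% of all genes were called. Without both retinas numbered 3, a choice made after seeing the data, the median was 1.43, the same 6 lens crystallins were called higher and Cryab lower (-1.38), where 21.8% of all genes were called. This last fit, like that without Sorbinil replicate 3, has 1 Sorbinil retina and assumes that it varies like the DMSO retinas. Without Sorbinil replicate 1 the log2 fold change of Cryab was -0.11, and the median of the 8 was 0.80 with 0 crystallins called, where 1.43% of all genes were called. Leaving out DMSO replicate 1 or 2 left 0 crystallins called as well, where 1.1% and 1.38% of all genes were called. The same held with the replicate number as a block, where 1.35% of all genes were called. In that fit DMSO replicate 2, the only retina of its number, does not inform the treatment difference. Several fitted values rest on DMSO retinas at or near 3 counts and are not bounds on the change.

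**Figure D4:**
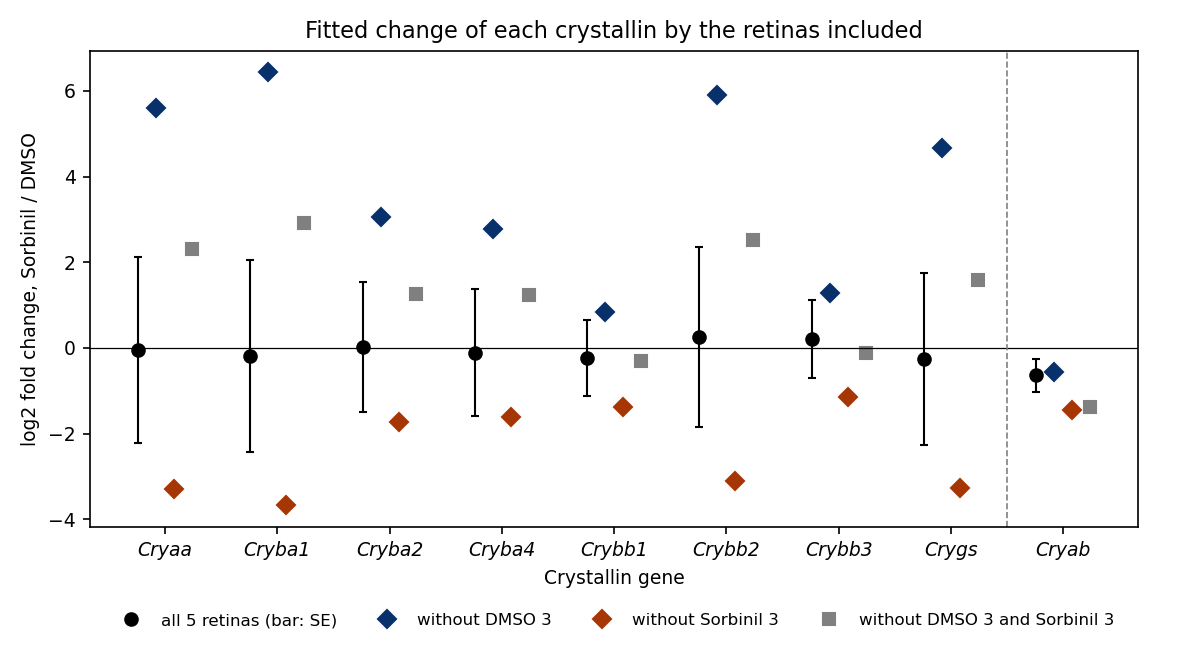
Fitted log2 fold change (Sorbinil / DMSO) of each crystallin with all 5 retinas (black, bars show the standard error) and with 1 or both of the retinas numbered 3 left out. For Cryaa the value is -0.04 with all retinas, 5.60 without DMSO 3 and -3.30 without Sorbinil 3, while Cryab stays at or below -0.56 in the fits shown.

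Of the lists around the crystallins, the lens fibre genes had 8 of 12 genes tested and 0 called. Of the 8, 0 had an unadjusted p-value under 0.05 by edgeR and 0 were called by the DESeq2 Wald test. Over all 14992 genes tested, these numbers were 257, 751 and 248. Their median log2 fold change was 0.249, with 7 of 8 values above 0, beside 7339 of the 14992 genes tested. The standard errors ran from 0.68 (Grifin) to 1.85 (Lctl), so no rise with Sorbinil is read from these values. The 5 γ-crystallins tested had values from -0.13 to 0.25 and 0 calls by either tool. Bfsp1 was called higher without DMSO replicate 3 (1.30). Several genes carry a crystallin name without being lens structural proteins of this kind, and none of the 7 tested was called. Crym, a ketimine reductase that binds thyroid hormone, was at 103, 84.7 and 92.7 CPM with DMSO and 39.6 and 72.1 CPM with Sorbinil. It differed by -0.74 on the log2 scale (standard error 0.27, edgeR unadjusted p = 0.0349, adjusted p = 0.758). Crybg3, a large gene with crystallin-like domains, differed by 0.28 on the log2 scale (standard error 0.10, edgeR unadjusted p = 0.0357, adjusted p = 0.758). Cryzl1, a quinone oxidoreductase-like gene, was at 37.1, 46.9 and 52.7 CPM with DMSO and 66.4 and 43.5 CPM with Sorbinil. None of these 7 genes was higher in both retinas numbered 3 than in the other retinas. Of 9 Müller glia genes, 0 were called by edgeR, 0 had an unadjusted p-value under 0.05 by edgeR and 0 were called by DESeq2, beside 257, 751 and 248 of all genes. Of 8 astrocyte and gliosis genes, edgeR called 1 lower and DESeq2 2, where edgeR called 1.35% of all genes lower and DESeq2 201 of the 14992. The gene called by edgeR was Serpina3n, lower with Sorbinil at a log2 fold change of -1.32, edgeR adjusted p = 0.758, and it was highest in DMSO replicate 2.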

How the data were processed

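Whole injured retinas were sequenced as total RNA. Within CLC Genomics Workbench the authors removed adaptors and aligned reads to GRCm39 under default settings. The deposited values are raw total counts, 1 whole number per gene symbol and retina. The annotation release, the treatment of reads on several genes and the use of strand are not given in the sources used here, and each could move counts of overlapping genes. Columns were matched to samples by the column name in the sample description, with 0 value columns left over. The authors left 1 Sorbinil replicate out of their own comparison after principal component analysis, and it was not analysed here.

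The tests used edgeR 4.0.16 under R 4.3.3, with filterByExpr by group (minimum count 10), TMM scaling, glmQLFit and glmQLFTest with Benjamini-Hochberg adjustment over all genes tested. Log2 CPM used a prior count of 2. Standard errors were derived from the F statistic. DESeq2 1.42.0 gave the alternative test and size factors. The steps were tested on simulated data. The 9 crystallins and all gene lists were chosen with earlier results of these data known. The genes named are the crystallins, the other γ-crystallin, lens fibre and small heat shock genes, up to 3 abundant genes of each other list, and the 5 genes nearest in profile, except for a few genes that are not reported here; Hsf4, Foxe3, Pitx3, Sox1, Krt12, Gnat1, Bag3, Rgr, Crybg3, Serpina3n, Muc4 and Col6a3 were named after their values were seen where that rule did not cover them. Positions, lengths and promoter sequences came from GENCODE vM39 and the GRCm39 genome. No pair of retinas agreed within sampling noise (smallest chi-square divided by its degrees of freedom, 24.6), and each retina is 1 replicate. A total of at least 56096541 counts per retina set the depth, and intervals cover counting error only.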

Additional observations from a re-analysis of the deposited data

How the results depend on the processing

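Of all genes, 257 were called with all 5 retinas, 408 with no filter on low counts, 148 with at least 10 counts in every retina, 168 at an unadjusted p of 0.05 or less, and 0 at an adjusted p of 0.1 or less, where 751 genes had an unadjusted p-value under 0.05 by edgeR and 21 an adjusted p-value under 0.05 by the DESeq2 Wald test. Leaving out retinas gave 164 (without DMSO replicate 1) to 3326 genes (without both retinas numbered 3, chosen after seeing the data), and 2903 without Sorbinil replicate 3. Called crystallins numbered 0 in the 10 alternatives that kept all 5 retinas, and 0 to 7 when retinas were left out, at 6 without DMSO replicate 3, 1 without Sorbinil replicate 3 and 7 without both retinas numbered 3. Without DMSO replicate 3, 298 of the 14998 genes tested (1.99%) were called. Cryba1, Cryba2, Crybb2 and Crygs, among the 6 crystallins called there, entered that fit largely through Sorbinil retinas. Their number is thus no support for a difference. The fits without Sorbinil replicate 3 and without both retinas numbered 3 have 1 Sorbinil retina, so nothing is read from their crystallin counts. Called lens fibre genes ran from 0 to 1 when retinas were left out. The log2 fold change of Cryab stayed between -0.81 and -0.63 with all 5 retinas, and ran from -1.44 to -0.11 when retinas were left out, with -1.38 without both retinas numbered 3. The median of the 8 lens crystallins stayed between -0.10 and 0.15 with all 5 retinas, and ran from -2.41 to 3.86 when retinas were left out, with 1.43 without both retinas numbered 3. The -0.81 of Cryab and the 0.15 of this median came from the fit with the replicate number as a block. DMSO replicate 2 is alone in its block there, so it does not inform the treatment difference although it is kept. With at least 10 counts in every retina the median could not be taken, since not all 8 genes were left. The cause of these changes was not tested.

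Replicate numbers 1 and 3 occur in both groups, but the labels do not say that they pair the mice. Over all genes tested, the deviations of same-numbered retinas from their group means correlated at -0.243 for number 1 and -0.125 for number 3. With 2 Sorbinil retinas, their deviations are equal and opposite. DMSO replicate 1 with Sorbinil replicate 3 therefore gave 0.243, and DMSO replicate 3 with Sorbinil replicate 1 gave 0.125. These values are tied by the group sizes and cannot decide whether the mice were paired. With the replicate number as a block, 0 crystallins and 1 lens fibre gene (Lenep) were called, 203 genes in all, the log2 fold change of Cryab was -0.81 and the median of the 8 lens crystallins was 0.15. DMSO replicate 2 is alone in its block and adds nothing to the treatment difference in that fit. The call of Lenep (log2 fold change 5.17) thus set aside its 19 counts in DMSO replicate 2. It rests on 12 counts in Sorbinil replicate 3, against 0 in DMSO replicates 1 and 3 and Sorbinil replicate 1.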
